A study of Mus musculus with 12 samples.

Results

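Usher syndrome joins hearing loss with degeneration of photoreceptors, and the genes mutated in it encode proteins that work together. In this dataset 9 such genes were chosen by symbol: Myo7a, Ush1c, Ush1g, Cdh23, Pcdh15, Adgrv1, Whrn, Clrn1 and Cib2. Each had 1 entry among the 56748 genes of the table. The proteins they encode are a motor (myosin VIIa), scaffolds (harmonin from Ush1c, SANS from Ush1g, whirlin from Whrn), adhesion molecules (cadherin 23, protocadherin 15 and the very large receptor ADGRV1), the small membrane protein clarin 1 and the calcium-binding protein CIB2. In hair cells of the inner ear they hold the stereocilia together and form the tip link, a filament of cadherin 23 and protocadherin 15 that pulls on the mechanotransduction channel. In photoreceptors of various species they are known from the calyceal processes around the outer segment, the connecting cilium, its periciliary membrane and the synapse. At the periciliary membrane whirlin and ADGRV1 belong to 1 complex. Which of these sites hold the 9 proteins in mouse rods was not examined here.

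RNA was sequenced from rods and from the retina of mice that were homozygous for Ribo-Tag and carried the i75Cre transgene, in which the rhodopsin promoter drives Cre. Cre adds an HA tag to a ribosomal protein, so that polyribosomes of rods can be pulled down with their mRNA (Rod-TRAP, here rods), and the lysate before the pull-down is the input (here retina). Control mice (Pkm2fl/+; RiboTag; i75-Rod-Cre) had 1 floxed Pkm2 allele and Pkm2 Rodko mice (Pkm2fl/fl; RiboTag; i75-Rod-Cre) had both alleles floxed, and Cre was present in both. Each of the 4 groups had 3 libraries, 12 in all. The mice were 2 months old by the methods and 2 weeks old by the deposited description. They were free of the rd1 and rd8 mutations. No label says that the libraries came from separate animals, so the p-values measure the spread between these libraries, which may be technical.

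The libraries held 13458890 to 22790074 reads on genes. Pkm, the gene that was targeted, fell from 52565 ± 1766 to 22850 ± 795 between control and Pkm2 Rodko rods on the deposited scale (SD, n = 3, log2 fold change -1.20, limma, adjusted p = 5.36e-05), and it fell in retina too (log2 fold change -0.65, adjusted p = 0.0219). The entry for Pkm does not separate its isoforms Pkm1 and Pkm2. The 7 rod markers were all higher in control rods than in control retina, with a median log2 fold change of 2.00. Markers of other cells had reads in rods, and nearly all were lower there. In control mice only Prkca of the bipolar list was not called lower (log2 fold change -0.054, limma, adjusted p = 0.764). In Pkm2 Rodko mice Prkca (0.011, adjusted p = 0.965), Pecam1 of endothelium (-0.47, adjusted p = 0.122) and Mlana of pigment epithelium (-2.90, adjusted p = 0.0532) were not. On the TMM scale described below, 6 Müller glia markers summed to 6513 to 8556 in control rods and 49599 to 54238 in control retina. The 6 bipolar cell markers summed to 5246 to 6472 and 12989 to 13640 in the same groups. No marker on the 10 lists was at 0 reads over a whole group. A level in these bulk samples cannot tell fewer cells of a type from less RNA per cell.

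The start regions of the genes differed in base composition. The 250 bases before the start are shown for 4 genes whose levels behaved differently. On the TMM scale Whrn was higher in rods than in retina, Pcdh15 overlapped between them, and Cib2 and Clrn1 were lower in rods. Other scalings changed the result for Whrn and Pcdh15, as given below. The sequences shown are from RefSeq for GRCm38.p6, each read 5′ to 3′ on the strand of its gene. Whrn lies at chr4:63495992-63496241 (minus strand), Pcdh15 at chr10:73821617-73821866 (plus strand), Cib2 at chr9:54560191-54560440 (minus strand) and Clrn1 at chr3:58885213-58885462 (minus strand). Capitals mark the GC box GGGCGG on either strand (its reverse reads CCGCCC) or the TATA box TATAAA.
Whrn: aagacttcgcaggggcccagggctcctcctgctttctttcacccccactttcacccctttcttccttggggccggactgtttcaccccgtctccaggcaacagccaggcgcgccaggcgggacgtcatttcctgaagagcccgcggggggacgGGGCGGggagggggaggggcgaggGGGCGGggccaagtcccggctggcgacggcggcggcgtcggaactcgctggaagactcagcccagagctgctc
Pcdh15: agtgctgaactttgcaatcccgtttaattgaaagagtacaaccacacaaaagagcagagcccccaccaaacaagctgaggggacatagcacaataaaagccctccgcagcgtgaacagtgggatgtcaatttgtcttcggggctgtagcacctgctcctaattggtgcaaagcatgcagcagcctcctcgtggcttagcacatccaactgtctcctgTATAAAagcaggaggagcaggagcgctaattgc
Cib2: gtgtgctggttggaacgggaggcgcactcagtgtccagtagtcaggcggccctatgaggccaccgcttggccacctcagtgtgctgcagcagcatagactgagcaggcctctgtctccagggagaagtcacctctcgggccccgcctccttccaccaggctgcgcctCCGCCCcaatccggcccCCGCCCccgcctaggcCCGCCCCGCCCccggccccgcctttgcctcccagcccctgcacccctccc
Clrn1: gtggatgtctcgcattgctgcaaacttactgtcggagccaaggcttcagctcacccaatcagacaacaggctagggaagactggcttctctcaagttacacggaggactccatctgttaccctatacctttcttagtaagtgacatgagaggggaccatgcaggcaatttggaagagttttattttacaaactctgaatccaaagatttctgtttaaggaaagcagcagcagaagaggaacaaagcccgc
The table had entries for 8 of the 9 genes, 9 promoters in all because Myo7a had 2, and none was printed for Ush1g. The GC content was 71.2% for Cib2, 69.6% for Whrn, 50.4% for Pcdh15 and 46.4% for Clrn1, against a median of 52.4% over all promoters in the table. GGGCGG, searched on both strands, matched 4 of the 9 promoters (4 places in Cib2, 2 in Whrn, 2 in 1 promoter of Myo7a and 1 in Ush1c), and 32.7% of all 32851 promoters. TATAAA matched Pcdh15 alone among the 9, and 12.4% of all. TAATCC, the core bound by photoreceptor homeodomain factors, matched none of the 9 and 6.25% of all. These matches describe the letters of the window only.

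The first comparison asked where the genes stood in rods against the whole retina. Rods here are mRNA pulled down with polyribosomes, and retina is RNA of the lysate before the pull-down. Cell type therefore cannot be told apart from ribosome binding or recovery in the pull-down. Because the authors scaled the 2 fractions apart, the reads were put on 1 scale by TMM over all 12 libraries, and these TMM-scaled reads are the values given per library. In control mice 6 of the 9 genes passed an adjusted p of 0.05: Whrn was higher in rods, and Ush1c, Ush1g, Cdh23, Clrn1 and Cib2 were lower. In Pkm2 Rodko mice 6 passed as well, Whrn higher and Myo7a, Ush1g, Cdh23, Clrn1 and Cib2 lower. Of all 25584 genes tested, 59% passed in control mice (23.5% higher, 35.5% lower) and 59% in Pkm2 Rodko mice (23.9% higher, 35.1% lower), so the share of genes called was near the background. The median log2 fold change was -1.93 over the 9 genes and -0.37 over all genes in control mice, and -1.25 against -0.32 in Pkm2 Rodko mice. These counts come from a limma fit that did not pair rod and retina libraries of the same number. With the library number as a block, Myo7a also passed in control mice (lower, adjusted p = 0.0241) and Pcdh15 in Pkm2 Rodko mice (higher, adjusted p = 0.0153).

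The height of Whrn above the retina depended on the scale. When reads were divided by the library total alone, the median of all genes moved to -0.76 in control mice, 14.7% of all calls were higher in rods in place of 39.8%, and none of the 9 genes was called higher and 8 were called lower. With the deposited values as they are, the median was -0.80, 12.9% of the calls were higher, and again 0 of the 9 were higher and 8 lower. In Pkm2 Rodko mice the share of higher calls went from 40.5% to 14.8% and 13.9%, with 0 of the 9 higher and 6 lower under both. Ush1g, Cdh23, Clrn1 and Cib2 were lower in rods, and past the threshold, under each of the 4 scalings and in both genotypes.

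**Figure D1:**
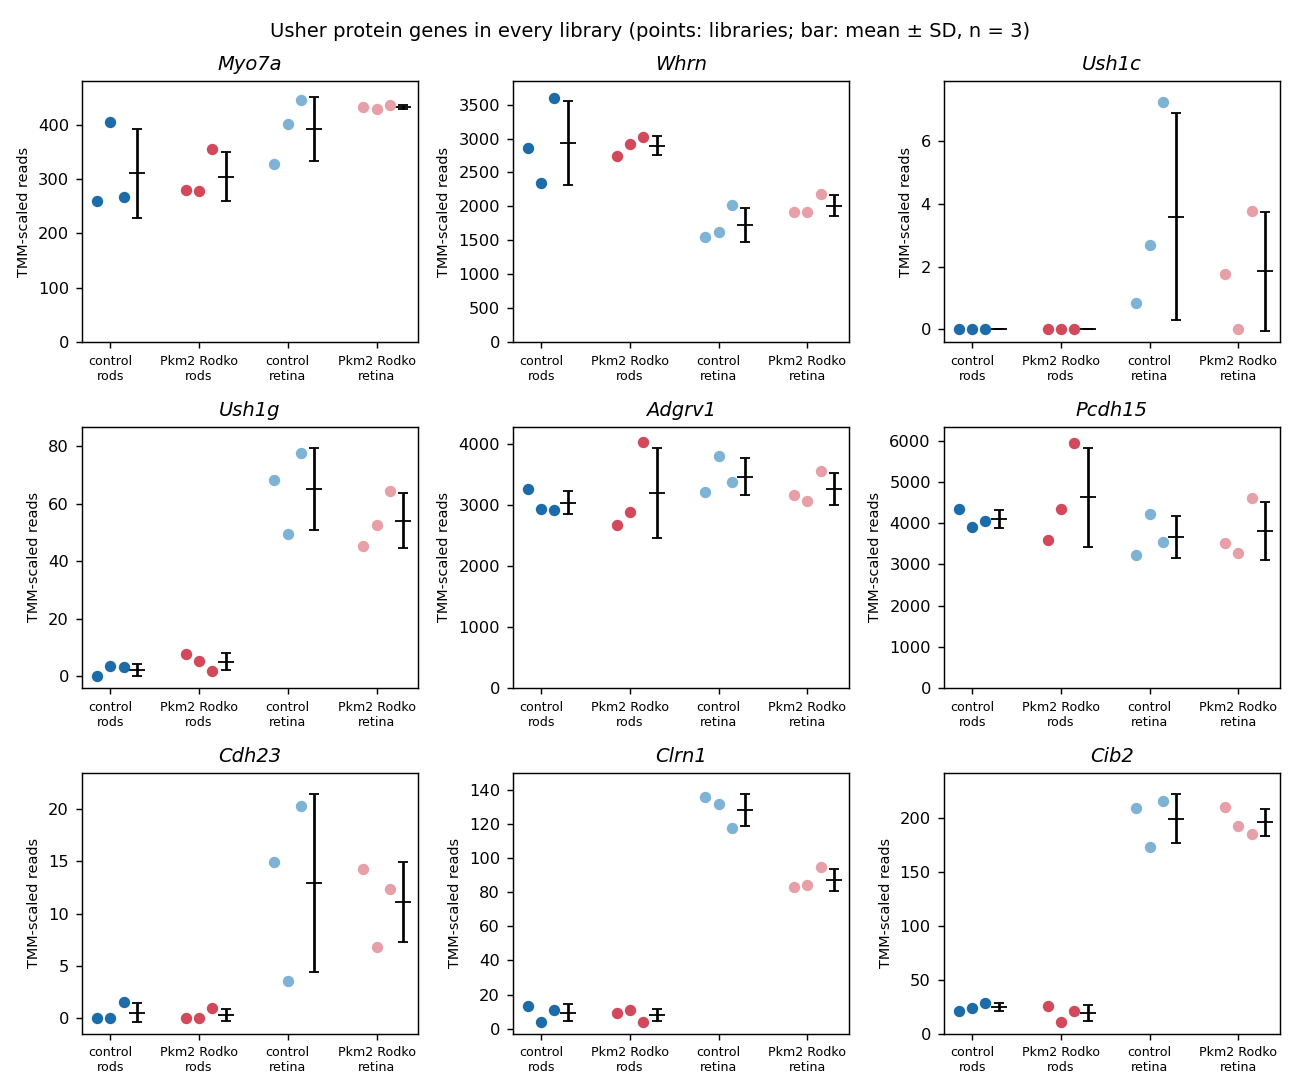
TMM-scaled reads of the 9 genes in every library, on a linear axis for each gene. Points are libraries in 4 groups, and the bar is the mean ± SD (n = 3). Ush1g, Clrn1 and Cib2 sit far lower in all 6 rod libraries than in any retina library, and Whrn sits higher.

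Myo7a encodes the motor, which in the pigment epithelium also moves melanosomes and phagosomes. It had 260.3, 405 and 267 TMM-scaled reads in control rods and 328, 402 and 445 in control retina. The groups overlapped through control rods replicate 2, which held the highest of the rod values. The log2 fold change of rods against retina was -0.35 (SE 0.16, limma, adjusted p = 0.0743), close to the median of all genes. With the library number as a block it passed (adjusted p = 0.0241). Single libraries moved it both ways, to -0.57 (adjusted p = 0.00285) without control rods replicate 2, -0.47 (adjusted p = 0.0349) without control retina replicate 1 and -0.23 (adjusted p = 0.295) without control rods replicate 1. It passed under RLE (-0.42, adjusted p = 0.0399), under scaling by the total (-0.90, adjusted p = 0.000275) and with the deposited values (-0.95, adjusted p = 0.000130), where the median of all genes was lower too. Myo7a in Pkm2 Rodko mice had 279.8, 278 and 356 in rods and 433, 429 and 437 in retina. All 3 rod libraries lay below all 3 retina libraries there, with a log2 fold change of -0.51 (SE 0.16, adjusted p = 0.0127), which was -0.45 (adjusted p = 0.0623) without Pkm2 Rodko rods replicate 2 and -1.10 (adjusted p = 4.12e-05) under scaling by the total. The summed level of 10 pigment epithelium markers in control retina was 7951, 1833 and 14294 in replicates 1 to 3, and in Pkm2 Rodko retina it was 8555, 10279 and 3345. The part of that tissue in the retina level of Myo7a was not tested.

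Whrn encodes whirlin, the scaffold of the periciliary complex. It had 2854, 2352 and 3593 TMM-scaled reads in control rods and 1543, 1616 and 2019.97 in control retina. Every rod library was above every retina library, with a log2 fold change of 0.75 (SE 0.13, limma, adjusted p = 0.000128). Its values in Pkm2 Rodko mice were 2739, 2924 and 3020.1 in rods and 1916, 1925 and 2186 in retina. The groups were again apart, with a log2 fold change of 0.53 (SE 0.13, adjusted p = 0.00246). Under scaling by the total this was 0.20 in control mice (adjusted p = 0.183) and -0.057 in Pkm2 Rodko mice (adjusted p = 0.723), and with the deposited values 0.16 (adjusted p = 0.314) and -0.075 (adjusted p = 0.641). Whrn stayed above the median of all genes by 0.66 to 1.12 on the log2 scale under the 4 scalings in both genotypes.

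The other scaffolds, harmonin and SANS, were at or near 0 in rods. Ush1c had no read in any of the 6 rod libraries. In control retina it had 1, 3 and 10 reads, and in Pkm2 Rodko retina 2, 0 and 4. The counts were small in the retina too, and 10 of the 14 reads of control retina came from replicate 3. For a first measure, rods were set at a floor of 3 counts over the group and the retina count was taken as exact. On that basis Ush1c was 2.92-fold lower in rods in control mice, and 1.33-fold without control retina replicate 3. The 95% counting interval of the ratio of retina to rods began at 2.08 in control mice and at 0.660 without that library. For the 6 reads of Pkm2 Rodko retina it began at 0.842, so that an equal level in both fractions lay inside it. The adjusted p by limma was 0.0119 in control mice and 0.0891 in Pkm2 Rodko mice. The former was 0.111 by DESeq2 and 0.0687 without control retina replicate 3, and the latter was 0.0154 without Pkm2 Rodko retina replicate 2, which had no read of it. On the opposite strand Ush1c shares 120 exon bases with Gm9860, which had 5 reads over all libraries against 20 for Ush1c.

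Ush1g, which encodes SANS, had 0, 4 and 2 reads in control rods and 82, 55 and 107 in control retina. The summed reads, 6 and 244, put the retina 25.5-fold above rods (95% counting interval 11.5 to 70.1) after scaling. The fitted log2 fold change was -4.59 (SE 0.56, limma, adjusted p = 3.53e-06), and -3.87 (adjusted p = 5.53e-06) without control rods replicate 1, which had no read of it. Pkm2 Rodko mice had 6, 4 and 2 reads in rods and 51, 69 and 68 in retina. Both fractions were apart again, with a ratio of 11.2 (interval 6.27 to 22.1), a log2 fold change of -3.30 (SE 0.56) and an adjusted p of 9.80e-05. Counting intervals and floors cover counting error only.

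Adgrv1 and Pcdh15, a pair of adhesion molecules, were abundant in both fractions. Adgrv1 had 3257, 2944 and 2927 TMM-scaled reads in control rods and 3215, 3807 and 3379 in control retina. Rods and retina overlapped, with a log2 fold change of -0.19 (95% interval -0.45 to 0.078, limma, adjusted p = 0.209). The Pkm2 Rodko mice had 2671, 2879 and 4040.2 in rods and 3167, 3060.2 and 3561 in retina. Replicate 3 of the rods was the highest of these 6, and the log2 fold change was -0.050 (interval -0.31 to 0.21, adjusted p = 0.751). Without that library it was -0.22 (adjusted p = 0.0468), and under scaling by the total it was -0.74 in control mice (adjusted p = 7.25e-05) and -0.64 in Pkm2 Rodko mice (adjusted p = 0.000290).

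Pcdh15 had 4336, 3915 and 4053 TMM-scaled reads in control rods and 3236, 4223 and 3530.2 in control retina. The groups overlapped, with a log2 fold change of 0.17 (95% interval -0.16 to 0.51, limma, adjusted p = 0.366). Pkm2 Rodko libraries had 3591, 4336 and 5949.6 in rods and 3520.4, 3281 and 4598 in retina. Replicate 3 was the highest in both fractions, and the log2 fold change was 0.27 (interval -0.068 to 0.60, adjusted p = 0.158). With the library number as a block, rods were higher in Pkm2 Rodko mice (adjusted p = 0.0153), and without Pkm2 Rodko rods replicate 1 the value was 0.41 (adjusted p = 0.0323). The sign turned under scaling by the total, to -0.38 in control mice (adjusted p = 0.0445) and -0.32 in Pkm2 Rodko mice (adjusted p = 0.0893).

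Cdh23, the partner of Pcdh15 in the tip link, was scarce. It had 0, 0 and 1 reads in control rods and 18, 4 and 28 in control retina. The counts in Pkm2 Rodko mice were 0, 0 and 1 in rods and 16, 9 and 13 in retina. Each retina library was above each rod library in both genotypes, and the ratio of retina to rods over the summed reads was 31.3 (95% counting interval 5.37 to 1262) in control mice and 27.2 (interval 4.59 to 1102) in Pkm2 Rodko mice. The fitted log2 fold changes were -3.08 (SE 0.63, limma, adjusted p = 0.000551) and -3.21 (SE 0.63, adjusted p = 0.000367). The control retina library with the fewest reads of Cdh23 (replicate 2) had the lowest pigment epithelium sum, while the Pkm2 Rodko retina library with the fewest (replicate 2) had the highest sum in its group. The part of that tissue was not tested. The levels of the 2 cadherins differed by far: per kilobase of exon, Pcdh15 stood at 154 ± 21.3 and Cdh23 at 0.765 ± 0.504 TMM-scaled reads in control retina.

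Clrn1, which encodes clarin 1 and has been placed in Müller glia of the mouse retina, had 8, 4 and 7 reads in control rods and 163, 146 and 162 in control retina. The retina stood 15.5-fold above rods (95% counting interval 9.84 to 26.03) after scaling. The log2 fold change was -3.79 (SE 0.41, limma, adjusted p = 8.74e-07), and the median over the 6 Müller glia markers was -2.80. Medians of the other marker lists apart from rods and cones ran from -3.34 (horizontal cells) to -2.44 (pigment epithelium). Clrn1 in Pkm2 Rodko mice had 7, 8 and 4 reads in rods and 93, 111 and 100 in retina. The ratio was 11.4 (interval 7.20 to 19.3) and the log2 fold change -3.38 (SE 0.41, adjusted p = 2.76e-06), with a Müller glia median of -2.95. Those other lists ran from -3.55 (ganglion cells) to -2.82 (pigment epithelium). Which cells held the Clrn1 RNA was not tested.

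Cib2, which encodes the calcium-binding protein that joins the mechanotransduction complex, had 13, 26 and 18 reads in control rods and 252, 193 and 298 in control retina. Every control rod library had fewer reads of it than any control retina library. The log2 fold change was -2.97 (SE 0.27, limma, adjusted p = 1.14e-07), a ratio of 8.17 over the summed reads (95% counting interval 6.23 to 10.9). Pkm2 Rodko mice had 20, 8 and 21 reads in rods and 236, 254 and 196 in retina. The log2 fold change was -3.36 (SE 0.27, adjusted p = 2.39e-08) and the ratio 10.02 (interval 7.49 to 13.7). Of the exon bases of Cib2, 15.8% overlap Sh2d7 on the opposite strand, which had 10 reads in all against 1535 for Cib2.

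**Figure D2:**
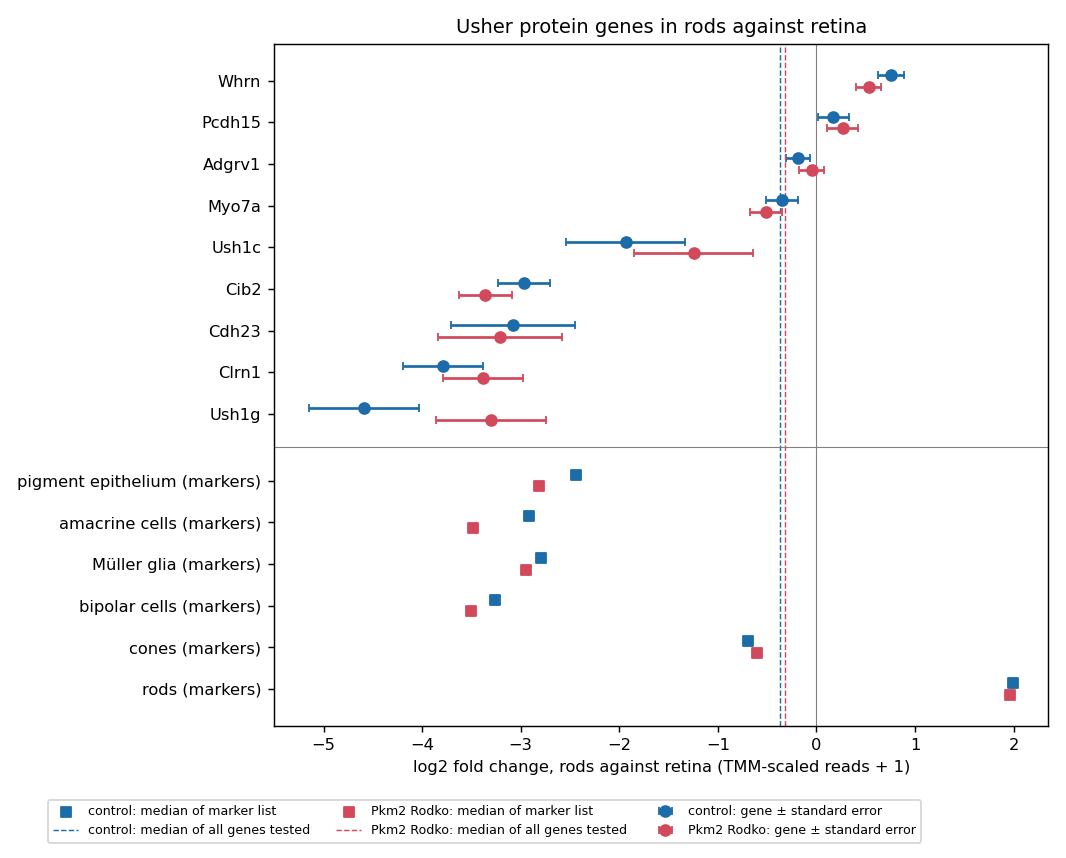
Log2 fold change of rods against retina for the 9 genes (circles, ± standard error) and the median of 6 marker lists (squares) in control and Pkm2 Rodko mice, with dashed lines at the median of all genes tested. Whrn is highest at 0.75 in control mice, while Ush1g, Clrn1, Cdh23 and Cib2 sit from -4.59 to -2.97, beside medians of -3.26 to -2.80 for bipolar, amacrine and Müller glia markers in control mice. The other plotted medians in control mice are -2.44 for pigment epithelium, -0.70 for cones and 2.00 for rods.

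Per kilobase of exon, so that levels of different genes can be set side by side, the order in control rods was Whrn (400 ± 85.1 TMM-scaled reads per kb), Pcdh15 (173 ± 9.02), Adgrv1 (122 ± 7.46), Myo7a (36.3 ± 9.51), Cib2 (17.2 ± 2.58), Clrn1 (2.42 ± 1.28), Ush1g (0.696 ± 0.608), Cdh23 (0.0313 ± 0.0542) and Ush1c (0). Neighbours did not overlap down to Clrn1, whose libraries overlapped those of Ush1g, as Ush1g did Cdh23 and Cdh23 did Ush1c. The order of the means was the same in Pkm2 Rodko rods, where the libraries of Pcdh15 and Adgrv1 overlapped too and Ush1g and Cdh23 did not. In control retina Whrn was again first (235 ± 35.0). Pcdh15 (154 ± 21.3), Cib2 (139 ± 15.9) and Adgrv1 (139 ± 12.3) followed and each overlapped the next, and then came Myo7a (45.7 ± 6.90), Clrn1 (33.2 ± 2.45) and Ush1g (19.7 ± 4.33). Ush1c (0.934 ± 0.858) and Cdh23 (0.765 ± 0.504) were last and overlapped. In Pkm2 Rodko retina the first 7 places were the same, and Cdh23 and Ush1c, which overlapped, changed places. By these lengths Cib2 stood beside Pcdh15 and Adgrv1 in the retina but at 17.2 against 173 and 122 in control rods. The levels used the union of exons, which for Pcdh15 is 23773 bases against 9104 for its longest transcript. With longest transcripts 7 of the 9 places in control retina stayed. Cib2 (121 to 151) was then below Adgrv1 (166 to 197) and Pcdh15 (355 to 464) there, without overlap. Whrn (381 to 499) then overlapped Pcdh15.

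**Figure D3:**
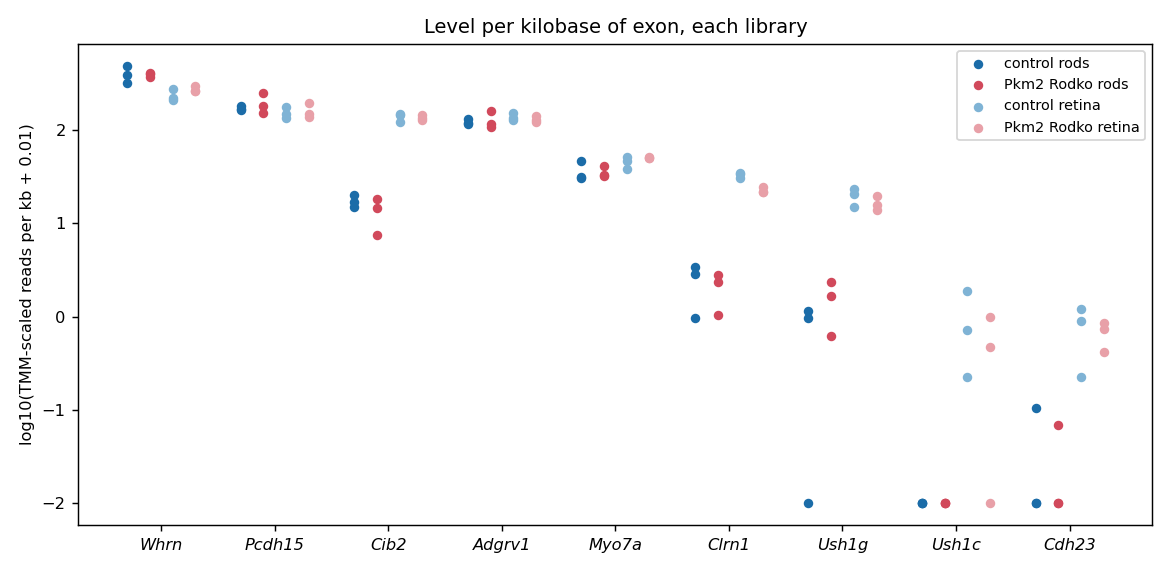
TMM-scaled reads per kilobase of exon for the 9 genes, plotted as log10 of the value plus 0.01, with 1 point for each library of the 4 groups. Whrn is first in all groups, Cib2 and Clrn1 drop from retina to rods, and the points at -2 are libraries without a read.

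The comparison of Pkm2 Rodko with control mice asked whether floxing both Pkm2 alleles in place of 1, with Cre in both groups, moved these genes. It used the deposited values within each fraction. In rods, 7 of the 9 genes passed the filter of a mean value of at least 1, and Ush1c and Cdh23 did not. None of the 7 passed an adjusted p of 0.05 by limma, none had an unadjusted p under 0.05, and edgeR and DESeq2 also called 0. Of all 20658 genes, 0.0194% passed the adjusted and 4.77% the unadjusted threshold. All 7 overlapped between genotypes, against 9.89% of all genes whose libraries did not overlap. For a single gene, an exact permutation test of 3 libraries against 3 could not go below p = 0.1.

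The intervals show how closely rods were measured. For the abundant genes the 95% interval of the log2 fold change was -0.39 to 0.39 for Myo7a, -0.26 to 0.28 for Whrn, -0.23 to 0.34 for Adgrv1 and -0.16 to 0.46 for Pcdh15. Among the scarce genes it was -1.23 to 0.44 for Cib2, -1.32 to 1.07 for Clrn1 and -0.54 to 2.43 for Ush1g, so changes of 2-fold in either direction lay inside the interval of Clrn1. Cib2 is the 1 gene of the 9 within 10 Mb of Pkm, and its log2 fold change in rods was -0.40 (limma, adjusted p = 0.932). Müller glia markers had negative log2 fold changes in Pkm2 Rodko rods in 6 of 6 cases, amacrine cell markers in 5 of 5 and ganglion cell markers in 6 of 6, with medians of -0.32, -0.64 and -0.35. So did 5 of 6 bipolar cell markers (median -0.38), 3 of 4 microglia markers (-0.47), 8 of 10 pigment epithelium markers (-0.20) and 5 of 6 cone markers (-0.098), while 1 of 7 rod markers did (0.060). Of the horizontal cell markers (median -0.11) and endothelium markers (-0.026) 2 of 4 each were negative, and no marker passed the adjusted threshold. Their part in the values of Clrn1 and Cib2 was not tested.

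In retina all 9 genes were tested and none passed an adjusted p of 0.05, as with edgeR and DESeq2, against 0.00391% of all 25590 genes. Clrn1 and Whrn had an unadjusted p under 0.05, against 4.18% of all genes. This depended on the fit: in 1 limma fit of all 12 libraries 0 of the 9 genes did, and by edgeR with TMM 1 did. Clrn1 had deposited values of 158.8, 155.6 and 139.0 in control retina and 98.1, 100.4 and 114.3 in Pkm2 Rodko retina. The highest value of the Pkm2 Rodko retina was below the lowest of the control retina, which held for 4.76% of all genes (9.29% were apart in either direction). The means were 151 ± 10.6 and 104 ± 8.76 (SD, n = 3), a log2 fold change of -0.53 (95% interval -0.86 to -0.20, limma, unadjusted p = 0.00392, adjusted p = 0.947). The fold change ranged from -0.60 to -0.49 when single libraries were left out, and the adjusted p from 0.542 to 1 over the alternatives.

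Marker levels in Pkm2 Rodko retina are given beside that of Clrn1. Clrn1 was at 69.0% of its control mean, and the Müller glia markers were at 89.7% for Rlbp1 and Glul, 89.9% for Slc1a3, 82.2% for Aqp4, 90.8% for Kcnj10 and 90.6% for Car14. Replicate 1 was the lowest Pkm2 Rodko retina library for Clrn1 and for all 6 markers. In it Slc1a3 was at 69.1% and Aqp4 at 70.2%, inside the range of the Clrn1 libraries. The 6 markers summed to 42170 to 48023 against 49599 to 54238 in control retina. Sums in this paragraph are TMM-scaled reads, while the percentages are of deposited values. Glul alone had a median of 33711.5 in Pkm2 Rodko and 37063 in control retina, most of each sum. The fold changes of all 6 were negative, with a median of -0.16, and 1 of them had an unadjusted p under 0.05 but none an adjusted one. The fold changes were negative for every marker of 5 more lists as well, 6 of bipolar cells (median -0.23, summed levels 10257 to 12820 against 12989 to 13640), 4 of microglia (-0.22), 4 of endothelium (-0.13), 6 of cones (-0.12) and 5 of amacrine cells (-0.053), and none passed the adjusted threshold. Of the ganglion cell markers 5 of 6 were negative (median -0.058), and of the horizontal cell markers 3 of 4 (-0.066). The pigment epithelium median was 0.19 (5 of 10 negative) and the rod median 0.092 (1 of 7 negative). Their part in the value of Clrn1 was not tested.

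**Figure D4:**
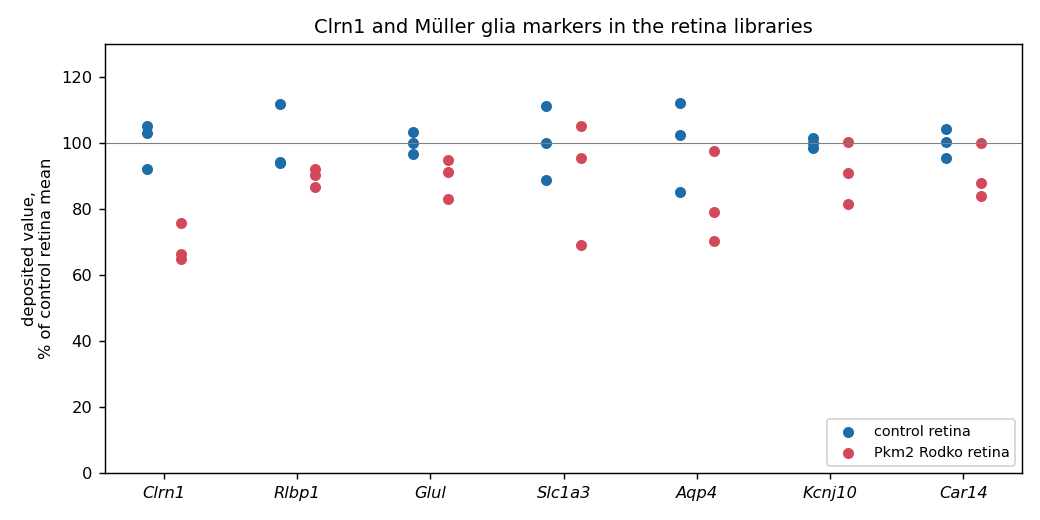
Deposited values of Clrn1 and of 6 Müller glia markers in the 6 retina libraries, as percent of the control retina mean, 1 point for each library. The Pkm2 Rodko points of Clrn1 lie between 64.9% and 75.6%, and the means of the markers between 82.2% and 90.8%. Single Pkm2 Rodko points of Slc1a3 (69.1%) and Aqp4 (70.2%), both of replicate 1, lie inside the range of Clrn1.

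Whrn had deposited values of 1808, 1914 and 2389.8 in control retina and 2269, 2289 and 2638 in Pkm2 Rodko retina. The groups overlapped through control retina replicate 3. Its log2 fold change was 0.24 (95% interval 0.017 to 0.47, limma, unadjusted p = 0.0367, adjusted p = 0.947), while in rods it was 0.0098. The other log2 fold changes in retina were 0.17 for Myo7a, 0.063 for Pcdh15, -0.071 for Adgrv1, -0.0034 for Cib2, -0.24 for Ush1g, 0.026 for Cdh23 and -0.74 for Ush1c. Their groups all overlapped. The narrowest interval was that of Adgrv1 (-0.26 to 0.12) and the widest that of Ush1c (-2.39 to 0.92).

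**Figure D5:**
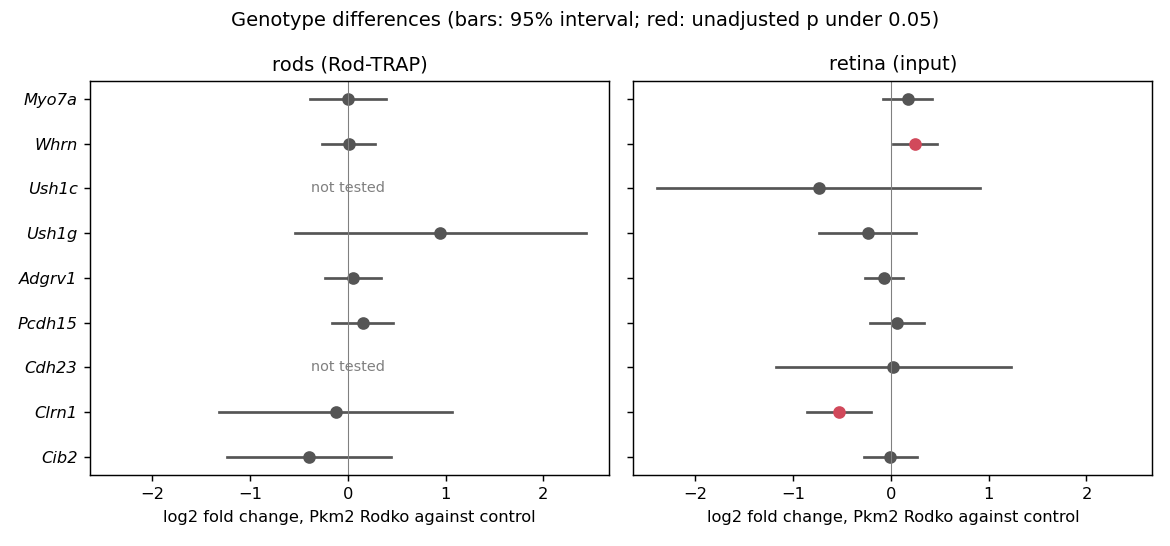
Log2 fold change of Pkm2 Rodko against control for the 9 genes in rods and retina, with bars for the 95% interval and red points for an unadjusted p under 0.05. Clrn1 at -0.53 and Whrn at 0.24, both in retina, are the only red points, and Ush1c and Cdh23 were not tested in rods.

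The difference between the genotype effect in rods and that in retina was tested in the fit of all 12 libraries. None of the 9 genes passed by limma, none had an unadjusted p under 0.05, against 4.41% of all genes, and no gene of 25584 passed the adjusted threshold (DESeq2 called 1 of all genes and none of the 9). The differences of log2 fold changes ran from -0.39 for Cib2 to 1.29 for Ush1g (adjusted p = 0.978, 95% interval -0.39 to 2.97). Clrn1 differed by 0.41 (interval -0.82 to 1.63) and Whrn by -0.22 (interval -0.62 to 0.17).

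Of 34 related genes listed, 33 were found in the table and 27 were tested for rods against retina. In control mice 10 were higher in rods and 9 lower, with a median log2 fold change of -0.19, while 23.5% of all genes tested were higher and 35.5% lower. Among those higher were Cdhr1, a cadherin of photoreceptor discs (1.86, SE 0.082, limma, adjusted p = 8.26e-11), Eps8, an actin regulator that partners whirlin (1.33, SE 0.10, adjusted p = 2.22e-08), and Arsg, a lysosomal sulfatase linked to an Usher-like disease (1.20, SE 0.16, adjusted p = 7.81e-06). Among those lower were Lhfpl5 (-2.36, SE 0.36, adjusted p = 4.06e-05) and Tmie (-2.06, SE 0.53, adjusted p = 0.00329), both parts of the hair cell channel complex that binds protocadherin 15, and Dock4 (-2.35, SE 0.24, adjusted p = 5.15e-07). These 6 kept their direction under the 4 scalings, while under scaling by the total the counts were 6 higher and 13 lower of 28 tested, with 8.43% of all genes higher and 49.1% lower.

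By role, 4 of 13 partners of the Usher proteins were higher in rods in control mice and 6 lower, and none of 3 tested channel genes was higher and 2 lower. Of 6 tested paralogs 2 were higher and 1 lower, and of 5 genes of Usher-like disease 4 were higher. Lists this short are given as counts only, beside the 59% of all genes that passed in one direction or the other. In Pkm2 Rodko mice 8 of the 27 were higher and 8 lower, with a median of -0.14, against 23.9% and 35.1% of all genes. Between genotypes, 0 of 24 passed in rods (1 with an unadjusted p under 0.05) and 0 of 27 in retina (none unadjusted), by limma.

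The genes with the most similar profile over the 12 libraries were found by Pearson's r of log2(TMM-scaled reads + 1), among about 10565 genes averaging at least 100 reads. Cib2 was closest to Setd7 and Shisa6 (both r = 0.998), Clrn1 to Stk32b (0.994) and Kctd2 (0.991), Ush1g to Lnp1 (0.980) and Mt3 (0.978), and Cdh23 to Papss2 and Sdcbp (both 0.969). Whrn was closest to Rhobtb1 (0.974) and Dpp9 (0.969), Pcdh15 to Map1b (0.947) and Ncoa4-ps (0.936), and Adgrv1 to Ercc6 (0.943) and Akap11 (0.930). Myo7a was closest to Acp6 and R3hdm1 (both 0.908) and Ush1c, which had few reads, to Chmp1b (0.911) and Tceanc2 (0.898). All points come from the same 12 libraries, 6 of rods and 6 of retina, so a difference between the fractions enters every one of these values.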

How the data were processed

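The data were 12 libraries of mouse retina, 3 in each of 4 groups taken from the sample labels. The authors deposited 1 table with a signal per gene and library: reads divided by a size factor, rounded to 1 decimal. The submitters' processing notes name CASAVA 1.8.2, HISAT2, DESeq2, edgeR and GRCm39; the counter, the annotation and whether strand was used are not given in the sources used here, so reads of overlapping genes cannot be told apart. The step between deposited values gave back whole reads for 99.996% of positive values (within 0.05 of a whole number), and its inverse equalled a size factor by median of ratios within each fraction of 6 libraries. The authors thus scaled rods and retina apart. Totals were 13458890 to 22790074 reads, which, with 3 libraries a group, set the precision.

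Genotypes were compared within a fraction by limma 3.58.1 (R 4.3.3) with a variance trend on log2(deposited value + 1), for genes with a mean of at least 1 in 1 genotype. Rods and retina were compared, and the difference of genotype effects tested, in 1 limma fit of 4 group means on log2(TMM-scaled reads + 1), with the same minimum in 1 group. Fold changes on these scales understate those of scarce genes. P-values were adjusted over all genes tested (Benjamini-Hochberg, threshold 0.05). Scripts were tested on simulated data. Alternatives were the recovered reads in DESeq2 1.42.0 or edgeR 4.0.16, a pseudocount of 0.1, no filter or at least 10 reads in every library, other scalings, 1 fit for all libraries, longest transcripts, a block and leaving out each library. Exon lengths came from GENCODE vM21 by identifier, promoters and neighbours of Pkm from RefSeq GRCm38.p6. Python 3.11.15, numpy 2.4.6, pandas 2.3.3, scipy 1.17.1 and matplotlib 3.10.9 were used.

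The genes named are the 9 Usher genes, of the related genes at most 3 per direction with the largest change, the 2 nearest profiles of each gene, Pkm and cell type markers. The genes, lists and tests were chosen with earlier results of these data known. Rod and retina libraries of the same number and genotype deviated together from their group means (r = 0.273 to 0.556 in 6 of 6 pairs, over 12730 genes), so the library number pairs the fractions; the pairing comes from the numbers in the labels and this check. Ush1c and Cdh23 fell below the filter in rods.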

Additional observations from a re-analysis of the deposited data

How the results depend on the processing

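Of 91 repeats of the counts of called genes, 89 stayed within 1.5 times the count of the report. This compares how many genes were called, not which ones or in which direction. It includes genotype repeats with 0 called both times. Scaling by the total in control mice also counts as within, although Whrn was no longer called higher there. With at least 10 reads in every library the genes called in rods against retina fell to 1 in control mice and 2 in Pkm2 Rodko mice, since most of the 9 genes were then not tested. Leaving out single libraries gave 5 to 7 called genes in both genotypes, and kept 5 to 7 of the 9 places in the order of levels in control retina (5 without control retina replicate 3). With the library number as a block, 7 genes were called in control mice (Myo7a added) and 7 in Pkm2 Rodko mice (Pcdh15 added), and the block changed no other call of the 9 genes. Between genotypes the same numbers did not pair the samples (r = -0.12, 0.026 and -0.25 in rods; 0.038, -0.070 and -0.29 in retina), not every library was closest to its own number, and the block gave 8 calls over all genes in rods in place of 4 and 0 in retina in place of 1, and 0 of the 9 genes in both.

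Of 627 repeats of single fold changes, 39 changed sign, 5 lost and 15 gained a call. In rods against retina the sign of Pcdh15 turned under scaling by the total (-0.38 in control, -0.32 in Pkm2 Rodko) and with the deposited values (-0.43 and -0.34), and that of Whrn in Pkm2 Rodko mice (-0.057 and -0.075); by construction these scalings move the median of all genes. Adgrv1 in Pkm2 Rodko mice ranged from -0.22 to 0.047 without single libraries. Small genotype differences also changed sign, and the cause was not tested. In rods Myo7a was -0.023 with edgeR, -0.031 with edgeR and RLE, -0.028 with DESeq2 and -0.0069 in 1 fit of all libraries, and Whrn -0.0070 with edgeR and RLE and -0.0074 with DESeq2. In retina Cdh23 was -0.25 with edgeR, -0.24 with edgeR and RLE and -0.22 with DESeq2. Without single libraries the ranges in rods were -0.12 to 0.21 for Myo7a, -0.60 to 0.23 for Clrn1, -0.14 to 0.16 for Whrn, -0.048 to 0.32 for Pcdh15 and -0.13 to 0.18 for Adgrv1. In retina they were -0.65 to 0.47 for Cdh23, -0.091 to 0.17 for Pcdh15, -0.098 to 0.058 for Cib2 and -0.14 to 0.0015 for Adgrv1. Ush1c, Cdh23, Ush1g and Clrn1 had at most 19 reads per group in rods, which limits what can be said of them there.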
